A study of Frankliniella occidentalis and Frankliniella intonsa with 9 samples.

Results

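A pair of protease families is described here in the antennae of the western flower thrips, Frankliniella occidentalis, and of the flower thrips Frankliniella intonsa: the trypsin-like serine proteases and the papain-like cysteine proteases, to which the cathepsins belong. Members were the assembled genes whose Pfam field named the domain Trypsin or Peptidase_C1 and whose annotation named an animal. There were 236 of 48889 assembled genes, 199 with the Trypsin domain and 37 with the Peptidase_C1 domain. By the wording of the annotation, or failing that of the Swiss-Prot match, they were split into 52 trypsins and chymotrypsins, 70 members of the clip family, 77 other trypsin-domain proteases, and 37 cathepsins and other C1 peptidases. The last class held 10 cathepsin B genes, 11 cathepsin L genes and 16 others.

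The libraries were made from antennae of 1-day-old adults, as 3 libraries of F. occidentalis females, 3 of F. occidentalis males and 3 of F. intonsa females. No genotype or treatment is named, and the sources used here do not say whether libraries of a group came from separate insects, so p-values measure the spread between libraries, which may be technical. RNA was copied and amplified as full-length cDNA by the SMARTer method, and 1 assembly held the transcripts of both species. Levels are in TPM, the length-corrected share of a transcript among all transcripts of a library, which keeps no record of how many reads were counted, so read depth is unknown. In bulk antennae, fewer cells of a type and less RNA per cell cannot be told apart.

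Trypsins and chymotrypsins are secreted as inactive zymogens and cut dietary protein, mostly in the midgut. Clip-domain proteases are their relatives in the hemolymph: in Drosophila and other insects they act one after another to activate the Toll ligand Spaetzle and prophenoloxidase, and serpins stop them. Cathepsins B and L degrade protein inside lysosomes in most animals, and in several insects with piercing mouthparts they also digest food in the gut. The domain table listed at most 1 domain per gene, so the clip domain itself could not be used to sort members, and clip family here rests on names such as snake, easter, stubble and proclotting enzyme.

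The libraries differed in ways that bear on every class. Genes with any annotation match held 70.5 to 76.7% of the TPM in the 6 F. occidentalis libraries, but 14.9, 55.6 and 7.63% in F. intonsa libraries 1, 2 and 3. Across all genes, Spearman correlations between libraries of a group were 0.897 to 0.914 in F. occidentalis females, 0.789 to 0.857 in males and 0.296 to 0.571 in F. intonsa. Markers of antennal chemosensory tissue, such as odorant-binding proteins, summed to 7790 to 11092 TPM in F. occidentalis, and to 1292, 9624 and 191 TPM in the 3 F. intonsa libraries. Fat body markers (vitellogenin, hexamerin and apolipophorin names, 59 genes) summed to 10302, 12110 and 6486 TPM in females against 87.4, 155 and 86.5 TPM in males, and 33 of the 41 tested were lower in males past the threshold used below. This sum pools vitellogenin with the other names and was not split, so it does not measure the amount of fat body.

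Cathepsins held the largest summed level of the 4 classes in the F. occidentalis libraries. Their members summed to 1441, 1576 and 1107 TPM in female libraries 1, 2 and 3, and to 1079.6, 768 and 839.6 TPM in male libraries 1, 2 and 3. Every female library lay above every male library, and the means were 1375 ± 241 and 896 ± 163 TPM (SD, n = 3 each). The lowest female and the highest male library were close together. Rescaled so that genes with an annotation match alone make up all TPM, the sums were 2036, 2201 and 1504 TPM in females and 1532, 1144 and 1254 TPM in males, and female library 3 then lay below male library 1. The log2 difference of the sum was −0.62 as deposited and −0.54 rescaled. As deposited, the fat body markers given above, vitellogenin included, were also higher in every female library. Any part of fat body in the cathepsin difference was not tested.

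**Figure D1:**
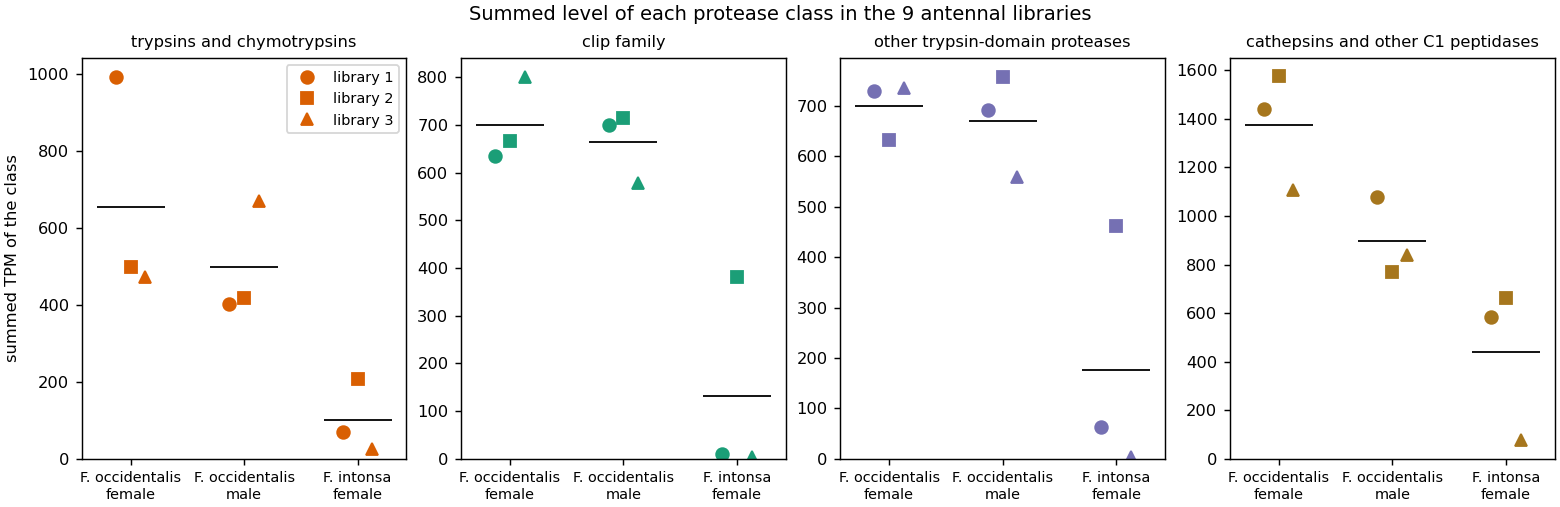
Summed TPM (vertical axis, from 0, with its own scale in each panel) of each protease class in 3 libraries each of F. occidentalis females, F. occidentalis males and F. intonsa females; each symbol is 1 library and each line is the mean of 3. Female library 1 stands at 992 TPM for trypsins, clip family sums of F. occidentalis lie between 579 and 800.5 TPM, and cathepsin sums of the sexes do not overlap on this scale, but do when rescaled to matched genes.

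The largest part of the class sum came from a pair of genes annotated as cathepsin L-like, an endopeptidase of the lysosome. TRINITY_DN41906_c0_g7 stood at 226, 409 and 237 TPM in females and at 344, 283 and 350.1 TPM in males. Its partner in the same assembly component, TRINITY_DN41906_c0_g5, stood at 285, 242 and 287 TPM in females and at 193, 115 and 25.7 TPM in males. The sexes overlapped for the first gene and did not for the second, whose level in male library 3 was far below that in the other males. Both carry the same annotation, so reads may have been divided between near-identical sequences. Summed, the pair had a female mean of 562 ± 77.1 TPM and a male mean of 437 ± 87.4 TPM (SD, n = 3 per sex), and the sexes overlapped.

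The second cathepsin L set matched cysteine proteases CP14 and CP19 that are named for F. occidentalis itself; 6 members matched that species. For CP14, TRINITY_DN43575_c1_g1 was at 243, 124 and 31.4 TPM in females and at 25.8, 10.6 and 85.3 TPM in males. TRINITY_DN43575_c1_g2, from the same component, was at 48.6, 31.0 and 9.06 TPM in females and at 5.24, 3.16 and 20.7 TPM in males. In both genes the libraries stood in the same order, with female libraries 1 and 2 highest, then male library 3, female library 3, male library 1 and male library 2. The sexes overlapped, and the log2 differences of −1.73 ± 0.83 and −1.61 ± 0.71 (SE) did not pass the test described next (adjusted p = 0.364 and 0.322, limma).

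Sex differences of single genes were tested with limma on log2(TPM + 1), with p-values adjusted over all 22015 genes that had at least 1 TPM in at least 3 of the 6 F. occidentalis libraries, at a threshold of 0.05. On this scale differences of low genes are understated, and positive values mean higher in males. Of the 236 members, 137 passed the filter, and 2 of them (1.46%) passed the threshold, against 1.89% of all tested genes. Both were lower in males, a direction called in 0.918% of all tested genes. The share of members called was thus close to the background, and 13.1% of members had an unadjusted p below 0.05 against 15.5% of all genes.

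The first was TRINITY_DN45664_c0_g6, a trypsin-domain gene with an uncharacterized ant protein as its annotation and Limulus clotting factor C, a horseshoe crab coagulation protease, as its Swiss-Prot match. It stood at 19.7, 11.0 and 8.60 TPM in females and at 0.66, 0.40 and 1.43 TPM in males. The lowest female library was well above the highest male one, and the log2 difference was −2.91 ± 0.44 (SE; adjusted p = 0.0190, limma). Its call was lost when female library 1 (adjusted p = 0.128, limma), female library 2 (0.127), female library 3 (0.0661) or male library 1 (0.0521) was left out, and with no filter on low values (0.0642).

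The second was TRINITY_DN40461_c0_g1, a clip family gene annotated as venom protease-like with snake, a protease of dorsoventral patterning in Drosophila, as its Swiss-Prot match. It was at 40.8, 51.1 and 41.4 TPM in females and at 14.5, 15.7 and 18.5 TPM in males, so that the groups lay far apart. The log2 difference was −1.40 ± 0.27 (SE; adjusted p = 0.0402, limma). Its partner with the same annotation, TRINITY_DN40461_c0_g7, showed no such gap, at 19.7, 14.3 and 22.2 TPM in females and at 18.2, 16.9 and 16.5 TPM in males. Both genes summed to a female mean of 63.1 ± 2.49 TPM and a male mean of 33.4 ± 1.32 TPM (SD, n = 3 per sex). The call was lost whichever library was left out (adjusted p from 0.0556 to 0.218, limma), with no filter (0.0514) and without the trend (0.0838), while the log2 difference stayed between −1.49 and −1.29 over the libraries left out.

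**Figure D2:**
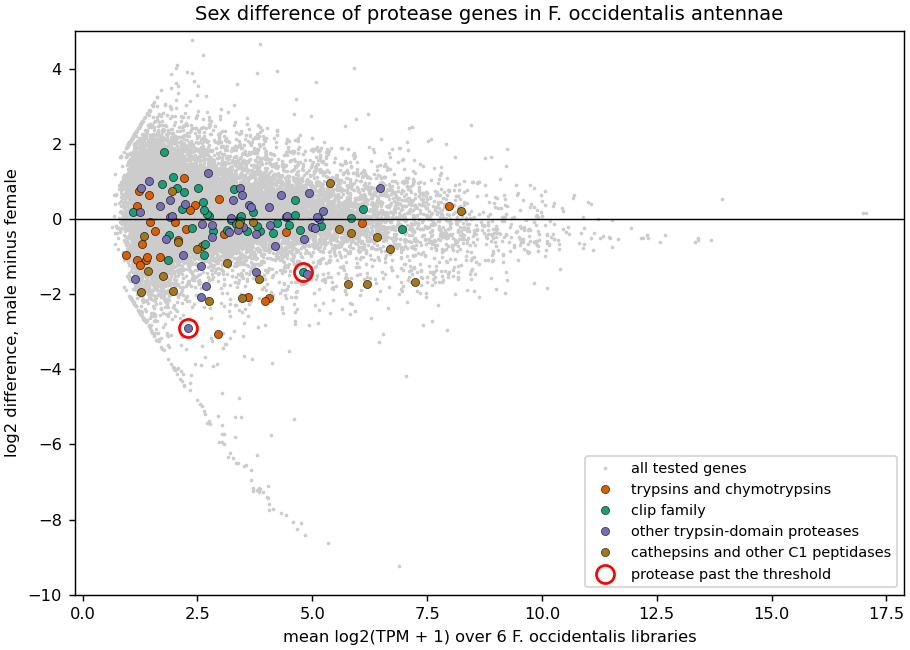
Log2 difference between male and female F. occidentalis antennae (vertical axis, log2 of TPM + 1, male minus female) against the mean level over the 6 libraries (horizontal axis, log2 of TPM + 1); each point is 1 tested gene, grey for all 22015, coloured for the 137 members by class, with red rings on the 2 past the threshold. Of the 23 cathepsin points, 20 lie below 0.

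Cathepsins had no gene past the threshold, yet most of their differences had the same sign. Of 23 tested, 20 had negative differences, the median was −0.80, and 7 (30.4%) had an unadjusted p below 0.05. Over all tested genes the median was 0.19 and 15.5% had such a p. Quantile normalization moved the median of all genes to −0.02 and that of cathepsins to −1.04, again with 20 of 23 negative. The sexes did not overlap for 6 of the 23 (26.1%), against 20.1% of all tested genes. The members share libraries and, in part, assembly components, so they are not independent of each other.

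Cathepsin B is a lysosomal protease that cuts both inside chains and from their ends. Its genes were 4 of the 7 in the class with an unadjusted p below 0.05, and 4 of the 6 without overlap. Negative differences were spread over the class: 6 of 7 tested cathepsin B genes, 6 of 7 cathepsin L genes and 8 of 9 others. The 10 cathepsin B genes summed to 332, 436 and 275 TPM in females and to 242, 187 and 145 TPM in males, with no overlap. TRINITY_DN45959_c0_g6 stood at 137, 150.1 and 111 TPM in females and at 79.7, 27.3 and 26.9 TPM in males. Its log2 difference of −1.73 ± 0.42 (SE) missed the threshold in the full fit (adjusted p = 0.0778, limma) and passed it without male library 1 (0.0147). TRINITY_DN45959_c0_g1, with the same annotation, was at 8.58, 67.0 and 40.9 TPM in females, lowest in female library 1, and at 50.5, 78.7 and 48.5 TPM in males. As a pair they had a female mean of 171 ± 39.7 TPM and a male mean of 104 ± 27.5 TPM (SD, n = 3 per sex), again without overlap.

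A further cathepsin B gene of the same component, TRINITY_DN45959_c0_g2, was at 28.4, 14.0 and 5.86 TPM in females and at 4.84, 0 and 4.46 TPM in males. Its log2 difference of −2.19 ± 0.75 (SE) was among the 3 largest of the members in that direction but did not pass (adjusted p = 0.195, limma). TRINITY_DN44318_c0_g4, a cathepsin B by its Swiss-Prot match whose annotation reads seminal fluid protein of a planthopper, was at 117, 189.6 and 112 TPM in females. In males it was at 103, 77.4 and 59.7 TPM, so every male library lay below every female one (log2 difference −0.79 ± 0.32, SE; adjusted p = 0.275, limma).

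Among the other C1 peptidases the levels were steadier in females, with a median SD of log2(TPM + 1) of 0.18. Cathepsin B had 0.59 and cathepsin L 1.09 there. In males the median SD was 0.61, close to the 0.64 of cathepsin B. TRINITY_DN40831_c0_g2, with cathepsin O of vertebrates as its Swiss-Prot match, was at 92.6, 97.2 and 108 TPM in females and at 102, 59.7 and 58.2 TPM in males. TRINITY_DN39243_c1_g2, annotated as digestive cysteine proteinase 1, was at 59.0, 74.3 and 61.1 TPM in females and at 68.9, 39.9 and 43.9 TPM in males. The sexes overlapped for both. TRINITY_DN44295_c0_g1, whose Swiss-Prot match is dipeptidyl peptidase 1 or cathepsin C, an activator of other proteases in mammals, was at 25.0, 40.8 and 10.5 TPM in females and at 9.77, 1.75 and 4.21 TPM in males. These last 2 genes were chosen after their values were seen; the dipeptidyl peptidase difference of −2.11 did not pass (adjusted p = 0.118, limma).

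**Figure D3:**
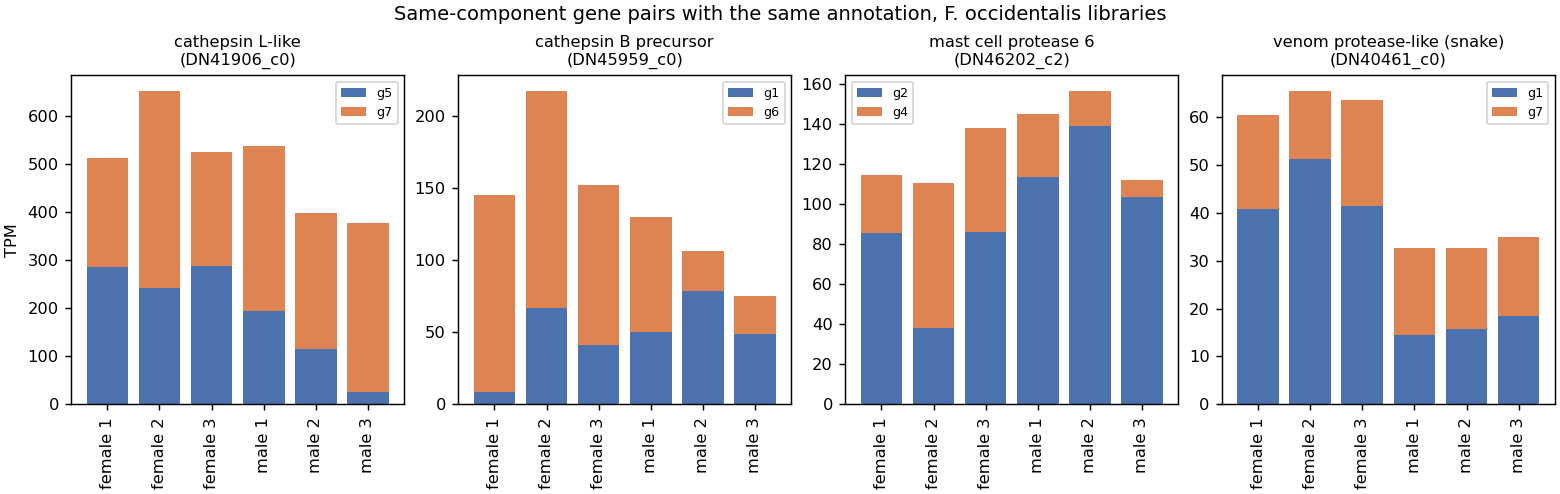
TPM (vertical axis, from 0) of 4 pairs of assembled genes that share a component and an annotation, stacked within each of the 6 F. occidentalis libraries; colours mark the pair's genes by the end of their identifiers. In the mast cell protease 6 pair the shares of the genes shift while the sum stays between 110 and 156 TPM, and in the venom protease-like pair the lower bar is taller in all 3 females than in any male.

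Trypsins and chymotrypsins had 28 of 52 members in the sex test, none past the threshold, with a median log2 difference of −0.37. At an unadjusted p below 0.05 there were 3 (10.7%), against 15.5% of all tested genes. The most abundant, trypsin-2-like TRINITY_DN42875_c0_g2, was at 191, 219 and 266 TPM in females and at 225, 300.03 and 337 TPM in males, with overlap. TRINITY_DN43046_c1_g6, named a partial trypsin although its Swiss-Prot match is urokinase-type plasminogen activator, was as even, at 83.2, 57.9 and 67.5 TPM in females and at 66.1, 60.5 and 65.5 TPM in males. Both stayed within a narrow range over all 6 libraries.

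The next trypsins did not keep one level within a sex. Trypsin-1-like TRINITY_DN43686_c0_g7 was at 65.4, 56.4 and 9.78 TPM in females and at 7.44, 4.01 and 11.4 TPM in males. TRINITY_DN43686_c0_g6, with the same annotation, was at 88.7, 14.8 and 9.64 TPM in females and at 2.64, 0.44 and 38.0 TPM in males. Trypsin-1-like TRINITY_DN45457_c0_g2 was at 84.3, 29.8 and 13.4 TPM in females and at 5.01, 1.09 and 30.8 TPM in males. In all 3 genes female library 1 was highest and male library 2 lowest, as for CP14. Their log2 differences of −2.10, −2.07 and −2.19 did not pass (adjusted p = 0.166, 0.455 and 0.310, limma).

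The CP14 order of all 6 libraries occurred in 33 of 22015 tested genes (0.15%), and 6 of those 33 were members, CP14 itself included. Many orders of 6 libraries are possible, so a low share is not particular to this one. The 6 were both CP14 genes, a cathepsin B-like gene (TRINITY_DN45959_c0_g4) and 3 trypsins (TRINITY_DN43686_c0_g7, TRINITY_DN39223_c3_g21 and TRINITY_DN45169_c0_g4), whereas no clip family or other trypsin-domain gene had it. Genes outside the members had it too, such as larval cuticle protein A2B TRINITY_DN44267_c1_g6 and ribosomal protein L39 TRINITY_DN39282_c0_g5. Their means over the 6 F. occidentalis libraries were 345 and 193 TPM. The order was picked after its values were seen, so these counts are a description without a test. More loosely, female library 1 was the highest of the 6 in 42.9% of tested trypsins and 34.8% of cathepsins, against 9.52% of clip family genes, 13.6% of other trypsin-domain genes and 8.44% of all genes. Male library 2 was the lowest in 46.4, 52.2, 11.9, 20.5 and 12.8% of the same groups.

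The largest sex difference of any member was that of chymotrypsin-2-like TRINITY_DN37451_c1_g8, at 41.1, 30.4 and 7.50 TPM in females and at 3.16, 0.12 and 3.13 TPM in males. The groups did not overlap, but the females spread widely, and the log2 difference of −3.06 ± 0.70 (SE) missed the threshold (adjusted p = 0.0662, limma).

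**Figure D4:**
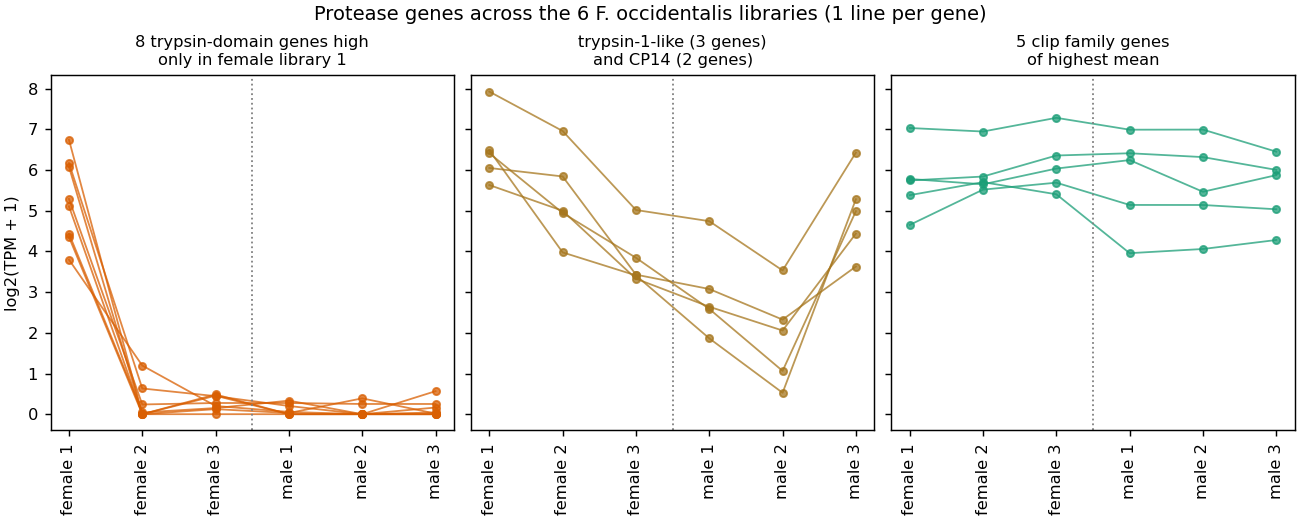
Level of single protease genes (vertical axis, log2 of TPM + 1) in the 6 F. occidentalis libraries (horizontal axis, females left of the dotted line); each line joins the values of 1 gene and carries no order in time. The 8 genes on the left are at 10 TPM or more in female library 1 and below 1.5 TPM elsewhere, the 5 trypsin-1-like and CP14 genes in the middle are highest in female library 1 and lowest in male library 2, and the 5 clip family genes of highest mean on the right stay within a narrower range.

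A further set of trypsins appeared in a single library. With a limit of at least 10 TPM in female library 1 and under 1.5 TPM in the other 5 libraries of F. occidentalis, set after the values were seen, 77 genes of the table qualified, 23 of them with an annotation match. Of these 23, 8 were members: 7 trypsins and a gene annotated as cocoonase 5, a trypsin-like protease with which silk moths soften their cocoon. The highest was trypsin-delta TRINITY_DN38817_c0_g2, at 106 TPM in female library 1 and at 0, 0.37, 0, 0 and 0.48 TPM in the others. The cocoonase gene TRINITY_DN41380_c0_g6 was at 71.2 TPM there and at 0.55 TPM or less elsewhere.

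Together the 8 genes summed to 369 TPM in female library 1 and to 2.05, 1.69, 0.68, 0.50 and 0.83 TPM in the other F. occidentalis libraries. None was in the sex test, because the filter needs 3 libraries. They are between 816 and 1113 bases long, and they came from 6 assembly components. The same limit applied to the other libraries gave 5 genes for female library 2, 0 for female library 3, 17, 248 and 255 for male libraries 1, 2 and 3, and among these were 3 members, all in male library 3. Single-library genes were therefore more numerous in males 2 and 3, but members among them were fewer.

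This set accounts for part of the high trypsin sum of female library 1. The class summed to 992, 498 and 472 TPM in females and to 402, 419 and 669 TPM in males. Without the 7 trypsins of the set the sums were 694, 496 and 471 TPM in females and at 402, 418 and 669 TPM in males, and the sexes overlapped either way. Gut marker genes (peritrophin, alpha-amylase, aminopeptidase N and maltase names, 12 genes) did not share the pattern as a list: they summed to 97.6, 96.2 and 108 TPM in females and to 245, 251 and 71.1 TPM in males. The list sum was thus higher in male libraries 1 and 2 than in any female library. Most of the 12 are annotated as aminopeptidase N, so the sum mainly follows that enzyme. The single peritrophin gene among the 12, TRINITY_DN31921_c0_g1, is annotated only as a protein with a chitin binding peritrophin-A domain. It went the other way, at 10.5, 14.4 and 1.36 TPM in females and at 0.18, 0 and 0 TPM in males, highest in female library 2. The part of other tissues in the trypsin levels was not tested.

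The clip family was the steadiest class across F. occidentalis antennae. Its median SD of log2(TPM + 1) among the 3 females was 0.33, against 0.91 for trypsins, 0.59 for cathepsins and 0.40 for all tested genes. Its sums were 635, 667 and 800.5 TPM in females and at 699.6, 714 and 579 TPM in males, which overlap. Of 42 tested members 21 had positive and 21 negative sex differences, with a median of 0.01; with quantile normalization, which lowers the median of all genes by about as much, 32 were negative and the median was −0.19. The venom protease-like gene above was the only 1 past the threshold.

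Its most abundant gene, TRINITY_DN40519_c1_g9, had stubble as its Swiss-Prot match, a membrane-bound protease of leg and wing shaping in Drosophila. It was at 130.1, 123 and 155 TPM in females and at 126, 127 and 86.6 TPM in males. TRINITY_DN43046_c1_g3, matched to easter, which activates Spaetzle in the Drosophila embryo, was at 52.6, 56.4 and 81.1 TPM in females and at 84.3, 78.9 and 63.3 TPM in males. The sexes overlapped for both of these genes. TRINITY_DN42389_c0_g1, named proclotting enzyme after the horseshoe crab protease that cleaves coagulogen, was at 54.0, 49.2 and 64.7 TPM in females and at 74.9, 43.2 and 57.7 TPM in males. Snake-like TRINITY_DN44920_c0_g4 was at 24.2, 44.9 and 50.7 TPM in females and at 34.4, 34.3 and 31.8 TPM in males, again with overlap.

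The 3 largest differences toward males among members with at least 5 TPM in 1 sex were small in level and not past the threshold. Stubble-like TRINITY_DN46145_c0_g2 was at 0.57, 0.70 and 1.35 TPM in females and at 2.92, 8.82 and 5.81 TPM in males, without overlap (log2 difference 1.80 ± 0.51, SE; adjusted p = 0.118, limma). TRINITY_DN43438_c0_g1, matched to snake, was at 1.17, 1.85 and 2.06 TPM in females and at 2.24, 7.98 and 5.64 TPM in males (1.12 ± 0.49, SE; adjusted p = 0.319, limma). The third, TRINITY_DN46761_c0_g3, matched to a bumblebee venom serine protease and placed with the other trypsin-domain genes, was at 0.93, 6.82 and 4.38 TPM in females and at 6.32, 20.3 and 5.66 TPM in males, with overlap.

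The other trypsin-domain proteases were as balanced between the sexes as the clip family. They summed to 730.1, 633 and 735 TPM in females and to 692, 757 and 559.6 TPM in males. Of 44 tested, 23 had positive and 21 negative differences, with a median of 0.02 (28 negative and −0.21 with quantile normalization). Their most abundant gene was the first of a pair named mast cell protease 6. TRINITY_DN46202_c2_g2 was at 85.3, 38.3 and 85.8 TPM in females and at 113, 139 and 104 TPM in males, whereas TRINITY_DN46202_c2_g4 was at 29.4, 72.1 and 52.0 TPM in females and at 31.5, 17.2 and 8.47 TPM in males.

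The pair thus pointed in opposite directions, with log2 differences of 0.84 ± 0.35 and −1.47 ± 0.49 (SE; adjusted p = 0.299 and 0.184, limma), while its sum had a female mean of 121 ± 14.7 TPM and a male mean of 138 ± 23.0 TPM (SD, n = 3 per sex). Of the other genes among the 5 of highest mean, TRINITY_DN43046_c1_g5 was at 31.3, 32.2 and 39.9 TPM in females and at 37.5, 30.2 and 36.7 TPM in males. TRINITY_DN45008_c0_g3 was at 30.6, 31.7 and 40.4 TPM in females and at 46.2, 46.2 and 29.3 TPM in males. TRINITY_DN45169_c0_g5 varied more, at 21.8, 28.9 and 54.9 TPM in females and at 38.1, 49.9 and 20.0 TPM in males, and for none of the 3 did the sexes separate.

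Genes that work with these proteases were examined as lists by their Pfam domains or names. Serpins, which block trypsin-like proteases, had 14 of 25 genes tested, and Kazal, Kunitz and TIL inhibitors had 4 of 7. Cystatins, the inhibitors of C1 peptidases, had 2 of 4 tested, and the targets and partners of clip proteases, such as prophenoloxidase, had 9 of 21. Lysosomal proteases of other families had 21 of 38 tested, digestive exopeptidases 20 of 33, and other digestive enzymes 47 of 74. No gene of any of these 7 lists passed the threshold in limma, against 1.89% of all tested genes. At an unadjusted p below 0.05 there were 0, 0, 0, 1, 3, 3 and 3 genes in this order. These were 0, 0, 0, 11.1, 14.3, 15.0 and 6.38% of the tested genes of each list, against 15.5% of all tested genes. Median log2 differences were 0.06, −0.07, −0.01, −0.02, −0.32, 0.60 and −0.08, beside 0.19 over all tested genes.

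Their most abundant genes gave the scale. Serpin I2 TRINITY_DN45721_c1_g4 had a female mean of 76.6 ± 19.5 and a male mean of 84.4 ± 15.0 TPM (SD, n = 3 per sex), and the cystatin-domain gene TRINITY_DN40625_c1_g1 at 101 ± 20.3 and 66.0 ± 19.5 TPM. The lysosomal aspartic protease TRINITY_DN43261_c1_g11, of the cathepsin D type, had 69.3 ± 8.22 and 50.9 ± 15.0 TPM, and prophenoloxidase 2 TRINITY_DN44971_c0_g2 at 55.8 ± 4.60 and 61.0 ± 15.5 TPM. None of these 4 genes was called. The inhibitor-domain gene TRINITY_DN45204_c0_g6 ranged from 45.5 to 319 TPM within the males, the exopeptidase-domain gene TRINITY_DN44087_c1_g3 from 161 to 675 TPM, and the digestive-enzyme gene TRINITY_DN13721_c0_g1 from 43.3 to 173 TPM.

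The protease genes listed in F. intonsa antennae depended on the library, as did all genes. Of the 236 members, 112 were above 0 only in F. occidentalis, 76 only in F. intonsa and 48 (20.3%) in both. Of all 48889 genes, 18034 were listed only in F. occidentalis, 20927 only in F. intonsa and 9928 (20.3%) in both. Cathepsins were in both species most often, 13 of 37 (35.1%), against 8 of 52 trypsins, 11 of 70 clip family genes and 16 of 77 other trypsin-domain genes. F. intonsa libraries 1, 2 and 3 had 41, 121 and 25 members above 0. Of the 124 members listed in this species, 110 were highest in library 2, and 73 were above 0 in library 2 alone of the 3. Of the 30855 genes of the whole table listed in F. intonsa, 20540 were highest in library 2 and 12639 were above 0 in library 2 alone.

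**Figure D5:**
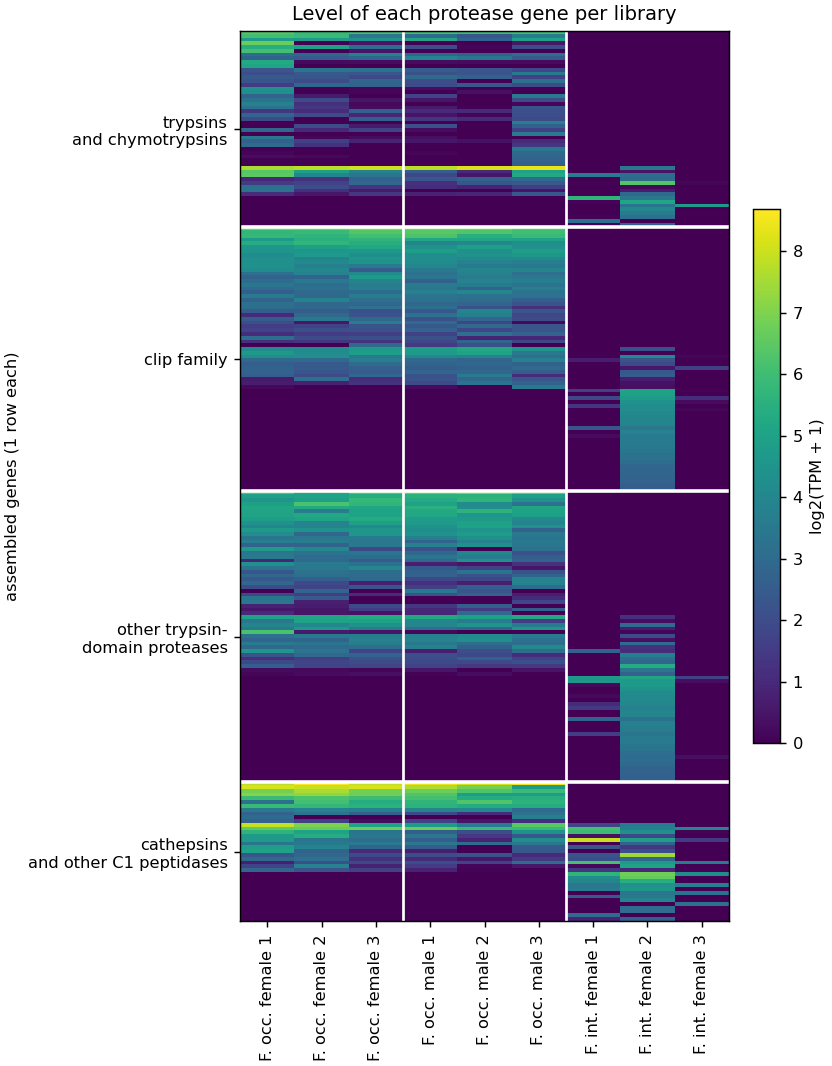
Level of each of the 236 protease genes (1 row per gene, grouped by class and, within a class, by the species in which it is listed) in the 9 libraries (columns); colour gives log2(TPM + 1) from 0 (dark) upward. Most F. intonsa rows are coloured in library 2 alone, and 13 of the 37 cathepsin rows at the bottom are coloured in both species.

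Class sums differed widely between the F. intonsa libraries, of which 1 and 3 have few matched genes. Cathepsins summed to 585, 663 and 77.1 TPM in libraries 1, 2 and 3, with 19, 24 and 10 genes above 0. Trypsins summed to 69.4, 207 and 24.4 TPM and clip family genes to 10.9, 382 and 3.78 TPM. Other trypsin-domain genes summed to 64.0, 462 and 2.79 TPM. Rescaled to matched genes, cathepsins reached 3992, 1243 and 1023 TPM in F. intonsa against 2036, 2201 and 1504 TPM in F. occidentalis females, which overlap. On that scale the log2 difference of the cathepsin sum between species moved from −2.13 to −0.14. Rescaled trypsin sums were 474, 387 and 323 TPM in F. intonsa, a much narrower range than as deposited. That range depended on members placed in the class by their Swiss-Prot match. The trypsins named by the annotation itself had rescaled sums of 474, 370 and 1.46 TPM. Rescaled clip family sums were still uneven, at 74.2, 715 and 50.2 TPM, and so were those of other trypsin-domain genes, at 437, 865 and 37.0 TPM.

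A test of single genes between the species was dominated by listing at 0. Of 121 members tested over the 6 female libraries, 103 (85.1%) passed the threshold in limma, against 85.4% of all tested genes, with 98 lower and 5 higher in F. intonsa. Over all tested genes, 14502 were called lower and 3625 higher. The share of members called either way was thus that of the table, but a smaller part of their calls was higher in F. intonsa. Of the 103 members called, 80 were at 0 in every library of 1 species. Species and assembly of separate transcripts for each species cannot be told apart for them.

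Of all 48889 genes, 1407 were above 0 in all 6 female libraries, and so were 8 of the 236 members, a similar share. Among these 8 members, 6 were cathepsins. The 3 of highest mean were a cathepsin O-like gene, CP14 TRINITY_DN43575_c1_g2 and CP19 TRINITY_DN46370_c1_g2. CP19 was at 24.9, 9.30 and 7.75 TPM in F. occidentalis females, at 5.02, 0.76 and 18.1 TPM in males, and at 252, 28.0 and 1.77 TPM in F. intonsa. CP14 TRINITY_DN43575_c1_g2 was at 60.4, 19.6 and 0.05 TPM in F. intonsa. The species overlapped for both genes, and the F. intonsa libraries spread over more than the whole range of the other species.

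On the deposited scale, the cathepsin O-like genes went opposite ways between species. Genes with an annotation match held 14.9, 55.6 and 7.63% of the TPM in F. intonsa libraries 1, 2 and 3. Single genes were not tested on the scale of matched genes. TRINITY_DN40831_c0_g2, given above for F. occidentalis, was at 69.5, 12.6 and 15.5 TPM in F. intonsa, below every F. occidentalis female (log2 difference −2.00; adjusted p = 0.0439, limma). TRINITY_DN40831_c0_g3, from the same component, was at 0.70, 3.34 and 2.65 TPM in F. occidentalis females and at 70.4, 24.8 and 11.6 TPM in F. intonsa (3.25; adjusted p = 0.00844, limma). Matched genes held 73.9, 74.9 and 76.7% of the TPM in F. occidentalis females. Divided by the matched shares, TRINITY_DN40831_c0_g2 would overlap between the species, so its direction depends on the scale. TRINITY_DN40831_c0_g3 would still be higher in every F. intonsa library. The component as a whole overlapped between species, at 93.3, 100.5 and 111 TPM in F. occidentalis females and at 139.9, 37.3 and 27.1 TPM in F. intonsa. Across the table, 52 of 116 components with members held at least 1 member listed in each species.

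The remaining abundant F. intonsa genes were mostly seen in library 2. Cathepsin L-matched TRINITY_DN41906_c0_g3, at 50.5, 108 and 19.0 TPM, was above 0 in all 3 libraries and listed at 0 in all F. occidentalis libraries, where other genes of its component are abundant. Cathepsin B-matched TRINITY_DN44318_c0_g1 was at 3.99, 172 and 0 TPM, and trypsin-2-like TRINITY_DN42875_c1_g1 was at 0.07, 81.6 and 0.08 TPM. Trypsin-7-like TRINITY_DN39445_c1_g2 was the exception, at 50.5 TPM in library 1, 9.86 TPM in library 2 and 0 in library 3. The partial trypsin TRINITY_DN42875_c1_g5 was at 0.05, 34.1 and 0 TPM.

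Of the trypsin-domain genes outside the digestive class, some were seen mostly in library 2 and others at similar levels in libraries 1 and 2. In the clip family, TRINITY_DN42389_c0_g4 was at 2.14, 30.7 and 0.05 TPM, TRINITY_DN43734_c0_g6 at 0, 30.6 and 0 TPM, and TRINITY_DN43734_c0_g9 at 2.58, 26.5 and 1.19 TPM. Of the others, TRINITY_DN43797_c0_g2, named Limulus clotting factor C, was nearly as high in library 1 as in library 2, at 25.3, 32.4 and 2.23 TPM, and so was TRINITY_DN45216_c1_g3, named nudel after the Drosophila protease of eggshell and embryo patterning, at 22.1, 24.5 and 0.26 TPM. TRINITY_DN41672_c0_g3, matched to plasma kallikrein, was at 40.1 TPM in library 2 and at 0 in the other 2. Library 3 was the lowest, or equal lowest, for every gene of this paragraph.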

How the data were processed

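TPM values are taken from the authors' deposited table, which holds 9 library columns over 48889 assembled genes. The header does not write the unit: the submitters' processing notes name cutadapt, FastQC and Salmon, and the columns sum to between 935518 and 987791, so TPM was inferred. Tool versions are not given in the labels. The smallest row maximum is 5.01 TPM, so low genes appear to have been left out before deposit.

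Members, classes and lists were chosen with earlier results of these data known. Values were tested as log2(TPM + 1) in limma 3.58.1 (R 4.3.3) with trend, after a filter of at least 1 TPM in at least 3 libraries of the comparison, with Benjamini-Hochberg adjustment over all tested genes. The test was tried on simulated data first. Class sums carry no p-value, since the members were chosen with results known; 3 against 3 libraries could not go below 0.1 in an exact test. Named genes were those called, the 5 of highest mean in F. occidentalis and 3 in F. intonsa per class, the 3 largest sex differences each way with at least 5 TPM in 1 sex, and the 3 of highest mean in all female libraries. In 2 members the annotation and Swiss-Prot wordings fell in different classes. Alternatives were another pseudocount (0.1), quantile normalization, no filter, no trend, all 9 libraries, a replicate block, summed components, rescaling to matched genes and each library left out. No sequences are printed.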

Additional observations from a re-analysis of the deposited data

How the results depend on the processing

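The 2 sex calls among members were 2 as well with a pseudocount of 0.1, quantile normalization and all 9 libraries in 1 fit. The number became 0 with no filter, 1 without the trend, and 0 to 1 with a library left out. Without male library 1 the gene called was neither of these 2 but TRINITY_DN45959_c0_g6 (adjusted p = 0.0147, limma). Replicate numbers did not pair the libraries (correlations of same-numbered libraries −0.0285, 0.0499 and −0.0353), and the replicate block also called 2, keeping TRINITY_DN45664_c0_g6 (adjusted p = 0.0274), losing TRINITY_DN40461_c0_g1 (0.0830) and adding TRINITY_DN37451_c1_g8 (0.0476). With all genes of a component summed, an alternative that also adds genes that are no members, 3 of 89 components were called. They were that of TRINITY_DN45664_c0_g6, TRINITY_DN38998_c0 (1.95, higher in males, adjusted p = 0.0211, limma) and TRINITY_DN45216_c1 (−1.92, adjusted p = 0.0474, limma). The only member of TRINITY_DN38998_c0 was at 2.65, 2.01 and 1.12 TPM in females. In males it was at 3.53, 5.27 and 0.66 TPM, with overlap. The only member of TRINITY_DN45216_c1 is at 0 in all F. occidentalis libraries. The component of TRINITY_DN40461_c0_g1 was not among those called. Male-minus-female log2 differences of class sums were −0.35 for trypsins (−0.59 to −0.0054 with a library left out, −0.91 without the top gene), −0.62 for cathepsins (−0.77 to −0.51, −0.94 without the top gene, −0.54 rescaled), −0.08 for the clip family (−0.14 to 0.025, and 0.0036 rescaled to matched genes) and −0.07 for other trypsin-domain genes (−0.17 to 0.053, and 0.0080 rescaled). Between species the calls were 103, or 67 with quantile normalization and 9 to 107 with a library left out; without an F. occidentalis library a gene of that species alone cannot reach 3 libraries. Species differences of class sums were −3.13 for trypsins (−3.90 to −2.36; −1.13 rescaled), −4.80 for the clip family (−6.76 to −3.44; −2.80 rescaled), −4.00 for other trypsin-domain genes (−5.71 to −2.02; −2.01 rescaled) and −2.13 for cathepsins (−2.68 to −1.13; −0.14 rescaled). Of 384 values of 32 named members, 351 kept direction and side of the threshold, 14 fell short of it, 2 passed it and 17 changed sign, all 17 in uncalled genes. With quantile normalization the sign changed for TRINITY_DN42389_c0_g1 (−0.022), TRINITY_DN43046_c1_g5 (−0.11) and TRINITY_DN45169_c0_g5 (−0.061). With a library left out these genes ranged from −0.15 to 0.24, −0.050 to 0.12 and −0.24 to 0.41, TRINITY_DN42875_c1_g1 from −0.32 to 0.34, TRINITY_DN43046_c1_g6 from −0.22 to 0.032 and TRINITY_DN44920_c0_g4 from −0.50 to 0.021. The cause of these moves was not tested. TPM keeps no depth, so no counting error can be given.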

Other observations

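The other 15 matched genes at 10 TPM or more in female library 1 and under 1.5 TPM in the other F. occidentalis libraries included the following 6, picked after their values were seen; glucose dehydrogenase, royal jelly protein, proteasome maturation and uncharacterized genes were among the rest. A pair named pectin lyase F, an enzyme that cuts plant cell wall pectin, stood at 68.8 TPM (TRINITY_DN39289_c1_g2) and 19.6 TPM (TRINITY_DN6522_c0_g2) there. A pancreatic triacylglycerol lipase (TRINITY_DN46374_c0_g1) stood at 21.6 TPM, a pair of lysozyme C-like genes at 18.7 TPM (TRINITY_DN42876_c1_g2) and 14.3 TPM (TRINITY_DN42876_c1_g3), and a carboxypeptidase A2-like gene (TRINITY_DN34444_c0_g3) at 13.9 TPM. Each of the 6 genes named was below 1 TPM in the other 5 libraries.

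Of the members, 3 matched a vertebrate: a dipeptidyl peptidase 1 gene (TRINITY_DN44295_c0_g3, at 31.3 TPM in F. intonsa library 2) and a pair of C1 genes that carried a bat annotation for cysteine protease RD19A, a name of plant proteases. TRINITY_DN37309_c0_g1 was at 7.12 TPM in female library 1 and 11.97 TPM in male library 3 and at 0 elsewhere. TRINITY_DN37445_c0_g4 was at 8.16 TPM in F. intonsa library 3 only.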
